A study of Mus musculus with 10 samples.

Results

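Ret and Trim27 are the mouse genes whose human counterparts, RET and RFP, make up the fusion oncogene of the mice studied here. All transcripts of the mouse genes in the GENCODE M21 annotation were taken: 2 of Ret and 7 of Trim27, 9 of the 142333 transcripts in the deposited files. Bulk RNA was sequenced from leukemia initiating cells, which are transformed B cell precursors, obtained by cell sorting of the spleen of Eμ-Ret pups at 13 days of age. Every pup in both groups carried the RFP/RET transgene, and the name Eμ-Ret refers to the immunoglobulin heavy chain enhancer, active in B lineage cells. The 5 control pups had received PBS (50 µl) and the other 5 pups Poly(A:U) (20 µg), an RNA duplex made by synthesis that the receptor TLR3 senses, 7 days before the cells were taken. No library came from a pup without the transgene, so the levels below describe the leukemic cells and not a change from normal precursors.

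Ret is a receptor tyrosine kinase of neurons, the kidney bud and the enteric nervous system. It is switched on when a ligand of the GDNF family binds a GFRα co-receptor, and the pair then brings Ret molecules together. Alternative use of the last exons gives the receptor a short or a long carboxy-terminal tail, named RET9 and RET51 after the number of residues that differ. Trim27, also called RFP for "ret finger protein", is a ubiquitin ligase of the tripartite motif family, with a RING finger, a B-box, a coiled coil and a carboxy-terminal B30.2 domain. The fusion joins the amino-terminal part of RFP, which lets the protein pair with itself, to the kinase of RET.

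The transcripts differ at places that bear on how reads can be shared out. Ret lies on the minus strand of chromosome 6 of mm10 (118151745 to 118197718). Ret-202, with 19 exons, 4497 bases and 1073 codons, runs past the end of exon 19 and stops within it, which makes the short tail. Ret-201, with 20 exons, 5456 bases and 1115 codons, splices from the same base to exon 20 and codes for the long tail. The 5′ ends differ too: Ret-201 begins at its start codon (118197133) and Ret-202 further 5′, at 118197718. Their coding ends are shown from 30 shared bases (lower case), 5′ to 3′ on the minus strand, up to the stop codon, with the bases that differ in capitals, since these ends decide which tail a transcript codes for. All sequences here come from the GENCODE M21 transcripts.
Ret-202 (chr6:118155256-118155317): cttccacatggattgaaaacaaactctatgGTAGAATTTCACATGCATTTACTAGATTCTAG
Ret-201 (chr6:118153853-118155317, spliced): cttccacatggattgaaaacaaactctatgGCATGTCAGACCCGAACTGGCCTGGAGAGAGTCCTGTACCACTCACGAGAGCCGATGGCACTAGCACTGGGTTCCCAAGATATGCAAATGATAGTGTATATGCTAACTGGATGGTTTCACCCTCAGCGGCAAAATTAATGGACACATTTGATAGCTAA

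Trim27 lies on the plus strand of chromosome 13 (21179445 to 21194724). Trim27-201 and Trim27-206 code for the same 513-residue protein and differ in their 5′ ends. Trim27-207 has 8 exons, 2046 bases and 314 codons. Its exon 6 starts 5 bases later than that of Trim27-201, so the reading frame changes and ends at the start of the last exon, ahead of the B30.2 part. The stretch from exon 5 to the last exon is shown for both, on the plus strand, because their reading frames part here. Capitals mark the 5 extra bases in Trim27-201 and the stop codon in Trim27-207.
Trim27-201 (chr13:21189941-21192033, spliced): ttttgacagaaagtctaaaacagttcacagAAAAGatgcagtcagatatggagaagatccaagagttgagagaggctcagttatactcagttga
Trim27-207 (chr13:21189941-21192033, spliced): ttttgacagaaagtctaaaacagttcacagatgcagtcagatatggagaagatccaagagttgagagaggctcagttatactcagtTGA

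Trim27-202 is annotated as a retained intron. It is a single stretch of 1750 bases, with no splice junction, that runs from exon 1 for 793 bases into intron 1. The end of exon 1 is given here, with capitals for what follows it: exon 2 in the spliced Trim27-201 and the intron in Trim27-202.
Trim27-201 (chr13:21180885-21182013, spliced): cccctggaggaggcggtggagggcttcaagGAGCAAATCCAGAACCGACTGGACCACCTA
Trim27-202 (chr13:21180885-21180944): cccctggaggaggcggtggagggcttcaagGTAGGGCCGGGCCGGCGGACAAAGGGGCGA

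Trim27-205 (1400 bases, 337 codons) begins at another first exon inside intron 1 and keeps the B30.2 end. Trim27-204 (683 bases) is annotated as a target of nonsense-mediated decay, and Trim27-203 (439 bases) as another retained intron.

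The files give 1 estimate of reads per transcript and library, with no coverage along the transcript. How well these estimates can part the transcripts therefore rests on sequence found in no other transcript. Of the 31-base words of Ret-202, 1306 of 4467 occur in no other annotated transcript of any gene, some in its longer 5′ end. Ret-201 has 2265 such words of 5426. Trim27-202 has 769 of 1720. Trim27-207 has 27 of 2016, and 1989 of its words also occur in Trim27-201, which goes on for 1860 bases beyond the end of Trim27-207. Trim27-205 has 29 of 1370. Trim27-201 also begins further 5′, at base 21179931, against 21180224 for Trim27-207. The split between Trim27-207 and Trim27-201 can thus rest on the 5-base difference, on the 5′ end or on reads in those last 1860 bases. The estimates do not tell these apart. The transgene is not in the annotation, and reads of the fusion that match a mouse transcript cannot be told apart from reads of the mouse genes.

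**Figure D1:**
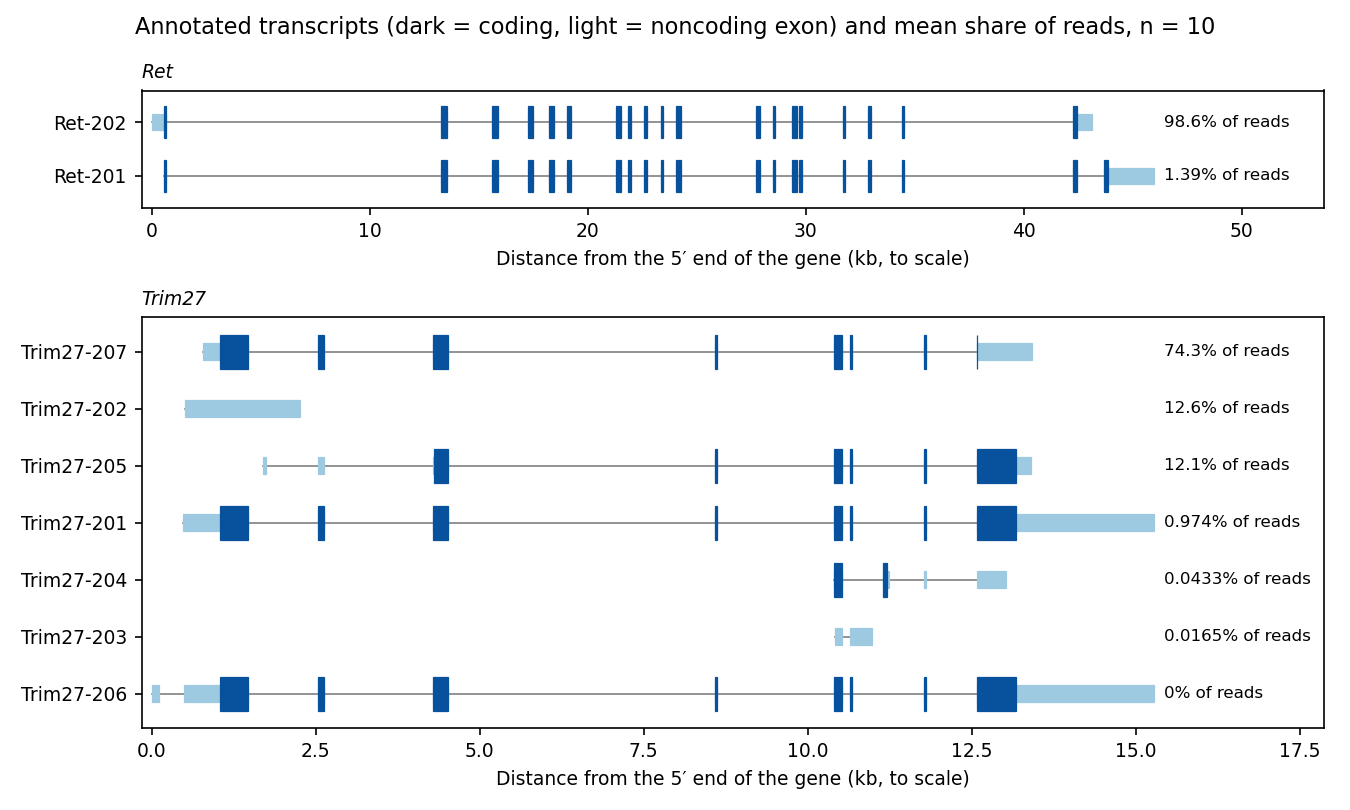
Exons of the Ret and Trim27 transcripts to scale, by distance in kb from the 5′ end of each gene (dark blocks are coding, light blocks noncoding, lines introns), with the mean share of the gene's estimated reads over the 10 libraries at the right. Ret-202 holds 98.6% of Ret reads, while Trim27-207, Trim27-202 and Trim27-205 hold 74.3%, 12.6% and 12.1% of Trim27 reads and the full-length Trim27-201 holds 0.974%.

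Both genes were expressed in every library. The libraries held 17859006 to 22587871 estimated reads. The B cell precursor markers, 8 genes with Pax5, Ebf1 and Rag1 among them, summed to 8638 CPM (reads scaled to a common library total) or more in 9 libraries and to 6983 CPM in PBS 4. In PBS 4 the 5 T cell markers summed to 210 CPM and the 6 macrophage markers to 134 CPM, against at most 35.4 and 32.7 CPM elsewhere. PBS 4 also had 16006 genes with at least 10 reads, against at most 14702. PBS 1, PBS 2 and PBS 3 share a start of their library names that no other library has. They had the highest sums of 7 neutrophil markers (681 to 1024 CPM, against at most 257 elsewhere) and the lowest of 5 erythroid markers (90.5 to 282 CPM, against at least 876). The part of these differences in the results below was not tested beyond leaving the libraries out. In bulk RNA, fewer cells of a type and less RNA per cell cannot be told apart.

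Ret was at 191, 221, 205, 100 and 164 CPM in PBS 1 to 5 and at 173, 184, 159, 146 and 142 CPM in Poly(A:U) 1 to 5. PBS 2 was the highest library and PBS 4 the lowest of all 10, and the Poly(A:U) values lay within the range of the PBS values. The means were 176 ± 47.3 CPM after PBS and 161 ± 17.4 CPM after Poly(A:U) (SD, n = 5 each), from 2040 to 4142 reads per library. The log2 fold change was -0.15 ± 0.18 (SE; edgeR's quasi-likelihood test, adjusted p = 0.825), with a 95% interval from -0.54 to 0.24, a fold of 0.687 to 1.18.

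Trim27 was at 298, 261, 289, 220 and 272 CPM in PBS 1 to 5 and at 282, 244, 250, 249.9 and 286 CPM in Poly(A:U) 1 to 5. PBS 4 was again the lowest library, and the groups overlapped. Means were 268 ± 30.5 CPM after PBS and 262 ± 19.9 CPM after Poly(A:U) (SD, n = 5 each). Its log2 fold change was -0.06 ± 0.09 (SE; edgeR's quasi-likelihood test, adjusted p = 0.872), with an interval from -0.25 to 0.13. Neither gene passed, and of the 13729 genes tested 0.00% were called; before adjustment, 1002 genes (7.30%) had p below 0.05. DESeq2's Wald test called 13 genes and limma voom with quality weights 932, neither member being among them (adjusted p = 0.851 and 0.0775 for Ret, 0.875 and 0.208 for Trim27).

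The sign of both differences rested on which PBS libraries were used. Without PBS 1 to PBS 3, Ret had a log2 fold change of 0.26 ± 0.20 and Trim27 of 0.06 ± 0.12 (SE). Without PBS 4, Ret had -0.29 ± 0.11 (SE; edgeR adjusted p = 0.280). Each of PBS 4 and PBS 5 shares a number in its name with a Poly(A:U) library. Between PBS 4 and Poly(A:U) 5 the log2 difference was 0.51 for Ret and 0.38 for Trim27, and between PBS 5 and Poly(A:U) 1 it was 0.07 and 0.05. The meaning of these shared names is not given in the labels.

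**Figure D2:**
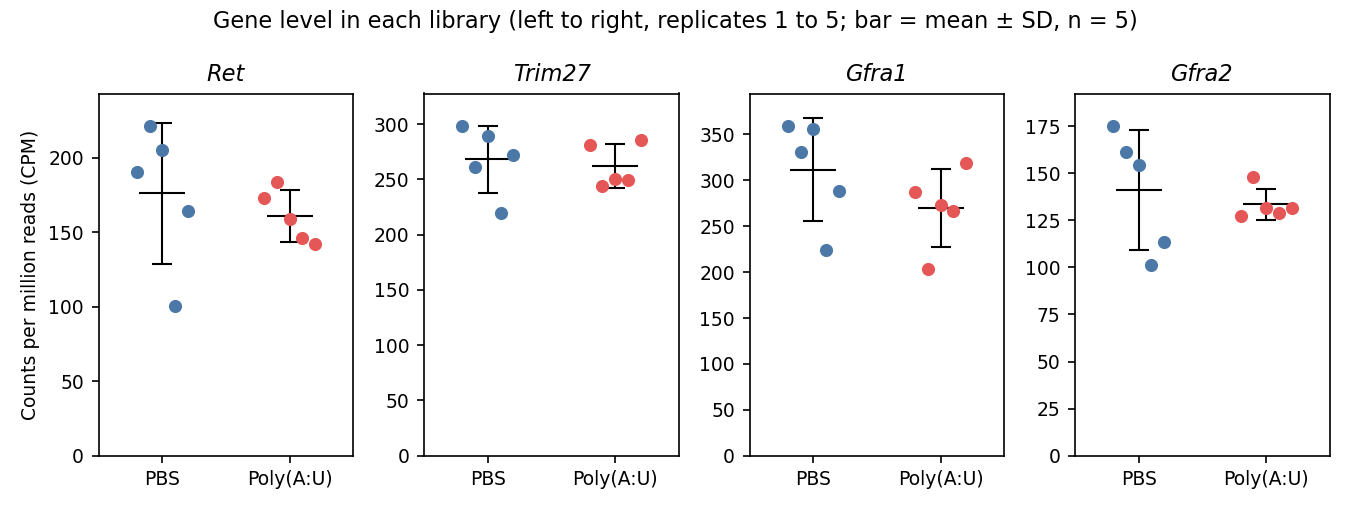
Gene level in CPM (linear axis from 0) of Ret, Trim27 and the RET co-receptors Gfra1 and Gfra2 in each library, 5 PBS and 5 Poly(A:U), replicates 1 to 5 from left to right, with bars for mean ± SD. The 2 groups overlap for each gene, and PBS 4 is the lowest PBS library for all 4 genes.

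The spread of Ret between pups was wide among genes when PBS 4 was included, and that of Trim27 was narrow. Within the groups the SD of log2 CPM was 0.34 for Ret, above that of 91.9% of the 9092 genes that averaged 10 CPM or more. Without PBS 4 it was 0.20 for Ret, above that of 68.1% of genes. For Trim27 it was 0.13, above that of 22.6% of them, and 0.09 without PBS 4. Per length, in TPM (transcript abundance scaled to a common total in each library), Trim27 averaged 209 ± 28.4 TPM and Ret 49.5 ± 10.6 TPM (SD, n = 10), above 95.2% and 78.5% of the tested genes. Trim27 was higher than Ret in 10 of 10 libraries, and the TPM ratio of Ret to Trim27 ran from 0.172 in PBS 4 to 0.307 in PBS 2. The TPM of Trim27, its rank and this ratio depend on how reads were split between Trim27-207 (2046 bases) and Trim27-201 (4204 bases). On the log2 scale the CPM ratio averaged -0.65 ± 0.33 in PBS and -0.71 ± 0.21 after Poly(A:U) (SD, n = 5 each). They differed by less than the spread between pups (p = 0.730, exact two-sided permutation test; the smallest p that 5 against 5 allows is 0.00794).

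Nearly all Ret reads were assigned to the short-tailed form. This assignment can also rest on the longer 5′ end of Ret-202, which does not bear on the tail. Ret-202 held 187.9, 217, 203, 99.1 and 161 CPM in PBS 1 to 5 and 172, 182, 157, 143 and 140.2 CPM in Poly(A:U) 1 to 5, the same order as the gene. Ret-201, the long-tailed form, had 58.9, 73.7, 36.9, 24.8 and 66.1 estimated reads in PBS 1 to 5 and 22.4, 30.8, 33.3, 61.6 and 49.98 reads in Poly(A:U) 1 to 5. It was low in every library, and no group stood apart. In TPM, Ret-202 averaged 48.9 ± 10.5 and Ret-201 0.564 ± 0.258 (SD, n = 10). The share of Ret-202 lay between 97.6% and 99.3% of Ret reads, with means of 98.5% ± 0.407 in PBS and 98.7% ± 0.697 in Poly(A:U) (SD, n = 5 each; p = 0.595, exact permutation test, and 0.595 adjusted over the leading transcripts of both genes). The log2 fold change was -0.18 ± 0.19 for Ret-202 and -0.48 ± 0.40 for Ret-201 (SE; adjusted p = 0.9995 for both by edgeR). Of 32435 transcripts tested, edgeR called 0.00%, with 1402 (4.32%) at an unadjusted p below 0.05, and DESeq2's Wald test called 23.

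Trim27 reads were assigned mainly to 3 of its 7 transcripts, and few of them to the annotated full-length forms. Trim27-207, the truncated coding form, was at 220, 184, 210, 169 and 205 CPM in PBS 1 to 5 and at 214, 178, 183, 186 and 220.2 CPM in Poly(A:U) 1 to 5. The groups covered nearly the same range. Its share of Trim27 reads ran from 70.6% to 77.1%, with means of 73.8% ± 2.36 in PBS and 74.8% ± 1.72 in Poly(A:U) (SD, n = 5 each; p = 0.452, exact permutation test, adjusted p = 0.595). This gave a log2 fold change of -0.07 ± 0.09 (SE; edgeR adjusted p = 0.9995).

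Trim27-205, with the other first exon, did not share the low value of PBS 4. Its level was 28.3, 32.0, 31.8, 30.6 and 30.9 CPM in PBS 1 to 5 and 31.9, 31.3, 36.9, 27.4 and 36.5 CPM in Poly(A:U) 1 to 5. PBS 4, the lowest library for the gene, lay within the range of the other PBS values for this transcript. The fitted log2 fold change was 0.03 ± 0.10 (SE; edgeR adjusted p = 0.9995).

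Trim27-202, annotated as a retained intron, varied most among the 3, though its estimate can also hold exon 1 reads of spliced forms. It stood at 48.1, 41.3, 45.9, 18.4 and 33.6 CPM in PBS 1 to 5 and at 33.4, 30.9, 28.3, 33.5 and 23.8 CPM in Poly(A:U) 1 to 5. PBS 1 to PBS 3 were above every other library and PBS 4 below every other. Its share of Trim27 reads was 13.7% ± 3.36 in PBS and 11.5% ± 1.95 in Poly(A:U) (SD, n = 5 each), from 15.8% to 16.2% in PBS 1 to PBS 3 and from 8.33% to 13.4% in the other 7. The exact permutation test gave p = 0.270 for this share (0.373 adjusted over the 3 transcripts Trim27-202, Trim27-205 and Trim27-201). The difference in share, Poly(A:U) minus PBS, was -2.20 percentage points with all libraries and -3.53 without PBS 4 (p = 0.0397 before adjustment, exact permutation test). The log2 fold change was -0.37 ± 0.23 (SE; edgeR adjusted p = 0.9995), -0.54 without PBS 4 (adjusted p = 0.730) and 0.17 without PBS 1 to PBS 3. Over all genes, transcripts annotated as retained introns held 2.69% of reads in PBS 4, the lowest share, 2.87% to 3.13% in PBS 1 to PBS 3, and up to 3.85% in Poly(A:U) 2. PBS 4 was lowest in this share and in the CPM of Trim27-202, while the libraries highest in Trim27-202 were not the highest in retained introns as a whole.

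Few reads were assigned to the full-length coding transcripts, and what decided their split from Trim27-207 is not known. Trim27-206 was at 0 reads in all 10 libraries, and Trim27-201 at 25.3 to 115 reads, which is 0.466% to 1.83% of Trim27 reads. Its lowest library was PBS 3 and its highest Poly(A:U) 5. The fit gave a log2 fold change of 0.39 ± 0.37 (SE; edgeR adjusted p = 0.9995), and of 0.09 without Poly(A:U) 5. The share averaged 0.827% ± 0.269 in PBS and 1.12% ± 0.477 in Poly(A:U) (SD, n = 5 each; p = 0.302, exact permutation test, adjusted p = 0.373). Trim27-204 had at most 7.34 and Trim27-203 at most 2.14 reads in a library, and both fell below the count filter, as did Trim27-206. In TPM the order was Trim27-207 at 142 ± 20.2, Trim27-202 at 33.6 ± 9.85, Trim27-205 at 31.6 ± 4.14 and Trim27-201 at 0.873 ± 0.43 (SD, n = 10). The values of Trim27-202 and Trim27-205 overlapped, Trim27-202 being the higher in 7 of 10 libraries.

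**Figure D3:**
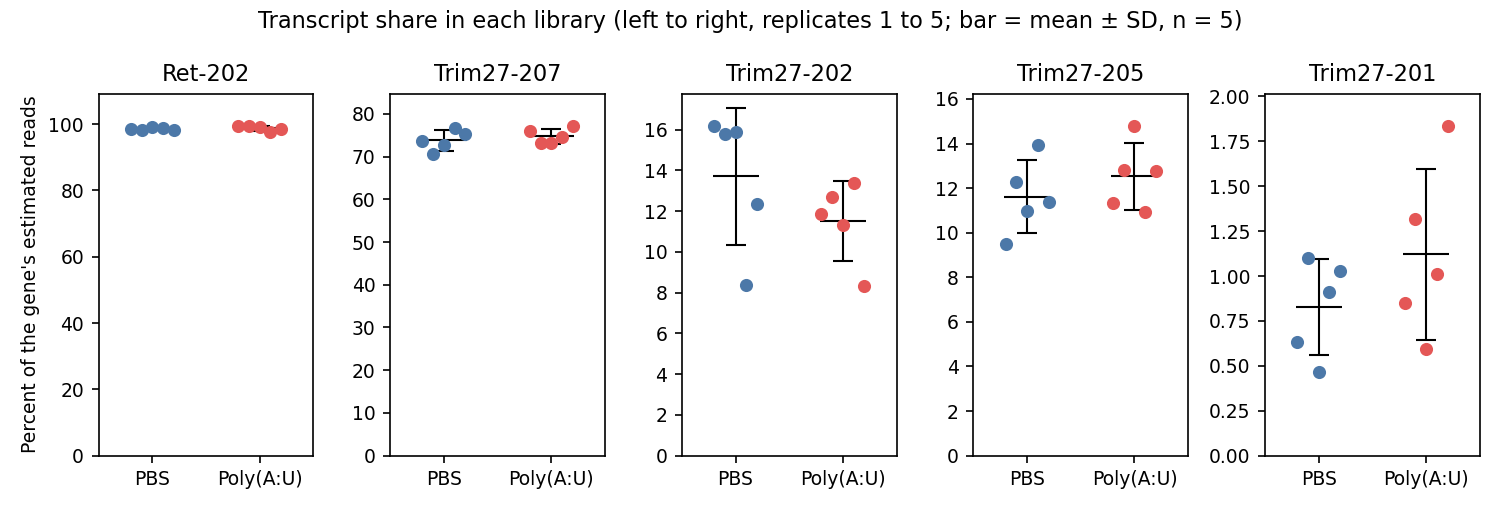
Share (percent, linear axis from 0, scaled per panel) of the gene's estimated reads on Ret-202, Trim27-207, Trim27-202, Trim27-205 and Trim27-201 in each library, replicates 1 to 5 from left to right, with bars for mean ± SD. Ret-202 stays between 97.6% and 99.3%, and for Trim27-202 PBS 1 to PBS 3 lie at 15.8% or more and PBS 4 at 8.39%.

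Across pups, Ret was correlated with Trim27-202, the transcript annotated as a retained intron, whose estimate can also hold exon 1 reads of spliced forms. With the Trim27 gene as a whole r was lower, and its p did not pass after adjustment. The difference between these correlations was not tested. On log2 CPM, Ret and Trim27 had r = 0.66 (p = 0.0368) and rho = 0.50 (p = 0.145; permutation tests, n = 10). Without PBS 2 and PBS 4, the 2 libraries farthest from the median of Ret, r was 0.54 (p = 0.168, exact permutation test). Without PBS 4 alone it was 0.39, the lowest r with any 1 library left out. For Ret and Trim27-202 r was 0.89 (p = 0.00044) and rho 0.77 (p = 0.0124; permutation tests, n = 10). Pearson's r was 0.81 without PBS 2 and PBS 4 (p = 0.0147, exact permutation test, n = 8), 0.87 without PBS 1 to PBS 3 and 0.90 with each treatment group centred on its mean. The rank correlation did not pass in some of these: rho was 0.64 without PBS 2 and PBS 4 (p = 0.0962, exact permutation test), 0.68 without PBS 1 to PBS 3 (p = 0.110, exact permutation test) and 0.68 without PBS 4 or without Poly(A:U) 5 (p = 0.0503, exact permutation test). Trim27-207, to which most Trim27 reads were assigned, had r = 0.40 with Ret, Trim27-205 -0.01 and Trim27-201 -0.13. These relations with single transcripts were examined after the values were seen. Over the 7 relations computed, the Pearson p adjusted by Benjamini-Hochberg was 0.0860 for Trim27, 0.00308 for Trim27-202, 0.348 for Trim27-207, 0.968 for Trim27-205 and 0.840 for Trim27-201.

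The genes most like Ret and Trim27 were others than each other. Over the 10 libraries and 8449 protein-coding genes averaging 10 CPM or more, the highest Pearson r with Ret on log2 CPM was that of Pced1b (0.98), followed by Arl6ip5 (0.97), Haao (0.97), an enzyme of tryptophan breakdown, Acot2 (0.96), a mitochondrial acyl-CoA thioesterase, and Hsd17b11 (0.95), a lipid droplet dehydrogenase. Without PBS 4 these values lay between 0.90 and 0.96. For Trim27 the list was Kif26a (0.97), Pxn (0.96), which encodes the adhesion protein paxillin, Ksr1 (0.95), a scaffold of the MAP kinase cascade, Phf21a (0.94) and Rnf44 (0.93). Trim27 ranked 838 in the order for Ret, and Ret 750 in that for Trim27. Such an order always has high values at its top with this many genes and 10 libraries, and it carries no test.

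Of the 5 co-receptors through which ligands reach Ret, Gfra1 and Gfra2 were abundant, and the ligands themselves were nearly undetected. Gfra1, the co-receptor that prefers GDNF, was at 359, 331, 356, 224 and 288 CPM in PBS 1 to 5 and at 287, 203, 273, 267 and 319 CPM in Poly(A:U) 1 to 5. The lowest library was Poly(A:U) 2, and PBS 1 to PBS 3 were the 3 highest. Between the groups the log2 fold change was -0.24 ± 0.13 (SE; edgeR adjusted p = 0.695). Gfra2, which prefers neurturin, was at 175, 161, 154, 101 and 114 CPM in PBS 1 to 5 and at 127, 148, 132, 129 and 131 CPM in Poly(A:U) 1 to 5. PBS 1 to PBS 3 were again the highest and PBS 4 the lowest. The log2 fold change was -0.10 ± 0.14 (SE; edgeR adjusted p = 0.850).

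Per length, Gfra1 averaged 88.1 ± 20.1 TPM and Gfra2 58.5 ± 10.2 TPM (SD, n = 10), against 49.5 ± 10.6 for Ret. Gfra1 was above Ret in 10 and Gfra2 in 9 of 10 libraries. Ret and Gfra2 had r = 0.85 (p = 0.00164) and rho = 0.83 (p = 0.00493; permutation tests, n = 10; Pearson p 0.00574 adjusted over the 7 relations). Without PBS 2 and PBS 4, r was 0.73 (p = 0.0427, exact permutation test, n = 8), and without PBS 1 to PBS 3 r was 0.77 and rho 0.71 (p = 0.0452 and 0.0881, exact permutation tests, n = 7). With Gfra1 r was 0.53 (p = 0.116, permutation test, n = 10; adjusted p = 0.203). It depended on the libraries used, being 0.86 without Poly(A:U) 2, 0.24 without PBS 2 and PBS 4, and 0.017 without PBS 1 to PBS 3. The relations with the co-receptors were also examined after the values were seen.

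The remaining co-receptors were at or near 0: Gfra3 had 30 and Gfra4 8 reads over all 10 libraries, and Gfral, the receptor for the stress hormone Gdf15, had 0. Of the ligands, Gdnf had 3 reads in all libraries together, neurturin (Nrtn) 27, artemin (Artn) 28, persephin (Pspn) 0 and Gdf15 12. The highest value of any ligand in any library was 1.03 CPM for Nrtn, and no ligand passed the count filter.

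**Figure D4:**
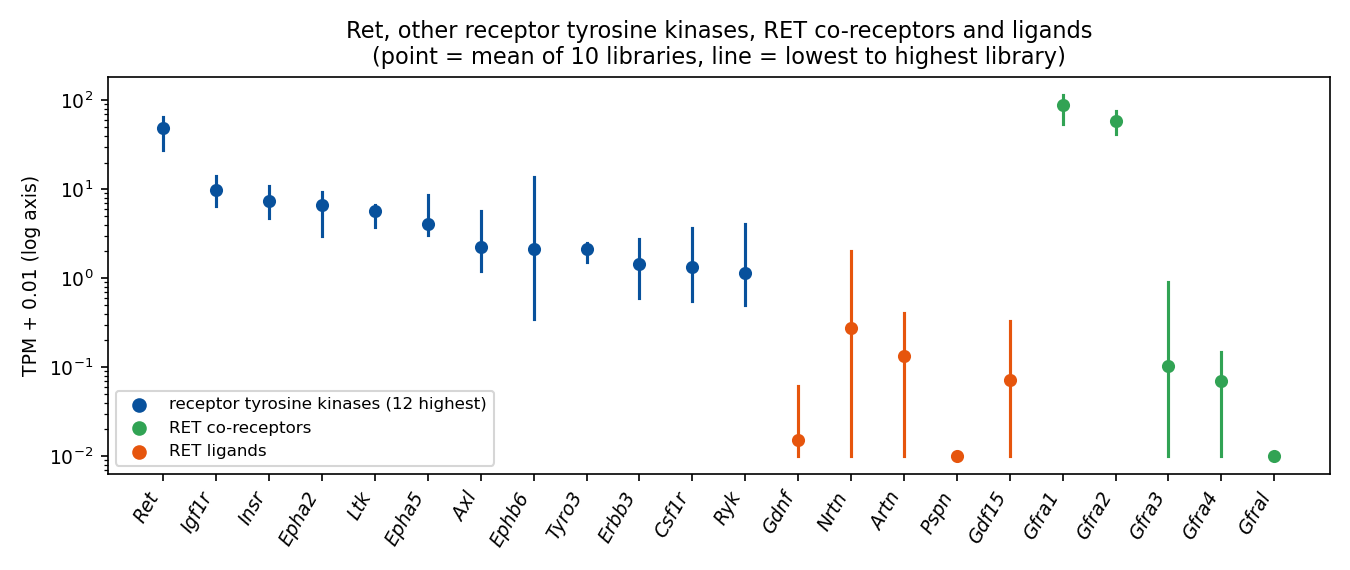
TPM plus 0.01 on a log axis for Ret and the next 11 of 51 receptor tyrosine kinases by mean level, the RET ligands and the RET co-receptors; points are means over 10 libraries and lines run from the lowest to the highest library. Ret lies at 27.4 to 65.4 TPM, Gfra1 and Gfra2 at 54.2 to 115 and 41.5 to 75.5 TPM, and the ligands at 2.03 TPM or below. Reads of the fusion that match mouse Ret would be counted with Ret.

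Ret came first by mean TPM of the 51 receptor tyrosine kinases listed, of which 38 averaged under 1 TPM. Reads of the fusion that match mouse Ret would be counted in its level and cannot be told apart. The next were Igf1r, the insulin-like growth factor receptor, at 9.69 ± 2.39 TPM, Insr, the insulin receptor, at 7.45 ± 1.76, Epha2 at 6.60 ± 1.93 and Ltk at 5.65 ± 0.948 (SD, n = 10). The lowest Ret library (27.4 TPM) was above the highest Igf1r library (14.3 TPM), while Igf1r, Insr, Epha2 and Ltk overlapped with their neighbours in the order. Of the other 50 kinases 18 were tested, of which 5 had positive and 13 negative log2 fold changes (median -0.12, against -0.002 over all genes tested). None was called. Those with the smallest unadjusted p were the progenitor receptors Kit, at 1.77 ± 0.362 CPM after PBS and 0.928 ± 0.267 CPM after Poly(A:U) (log2 fold change -0.95 ± 0.28 SE), and Flt3, at 2.08 ± 0.776 and 1.34 ± 0.434 CPM.

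Of 27 genes of adaptors and proximal signalling below Ret, 23 were tested and none was called. Of these, 8 were positive and 15 negative, with a median log2 fold change of -0.04. Over all genes tested, 6784 were positive and 6945 negative, with a median of -0.002. Crk, an adaptor, had 57.1 ± 13.8 CPM after PBS and 77.6 ± 11.7 CPM after Poly(A:U) (log2 fold change 0.41 ± 0.15 SE, adjusted p = 0.677 by edgeR). The docking protein gene Gab2 had 72.0 ± 17.5 and 57.4 ± 11.3 CPM (-0.36 ± 0.17). A further list of 15 genes held partners of TRIM27, with Epc1, Chd4 and Pml among them, the WASH complex and the retromer. TRIM27 works with the WASH complex and the retromer in endosomal sorting. Of the 15 genes, 14 were tested and none was called, 3 positive and 11 negative with a median of -0.08. Washc2, a WASH subunit, gave -0.19 ± 0.11 and Vps26b, a retromer subunit, -0.33 ± 0.22 (SE).

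Of 21 other tripartite motif genes with the same kind of carboxy-terminal domain as Trim27, 13 were tested and none was called. Of these, 10 had positive and 3 negative log2 fold changes (median 0.18), against 6784 and 6945 of all genes tested (median -0.002). Trim25, a ligase of antiviral RNA sensing, had 118 ± 26.6 CPM after PBS and 171 ± 36.4 CPM after Poly(A:U) (0.50 ± 0.16 SE), and Trim39 had 19.4 ± 1.26 and 23.8 ± 2.30 CPM (0.27 ± 0.09). Their edgeR adjusted p was 0.677 each, and at an unadjusted p below 0.05 stood 3 of the 13 genes, against 7.30% of all genes.

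The neighbours of both genes on the chromosome were mostly low or at 0. Beside Ret, Csgalnact2 was at 16.0 ± 3.52 CPM after PBS and 16.6 ± 2.76 CPM after Poly(A:U), Bms1, a factor of ribosome assembly, at 100.3 ± 14.4 and 103 ± 8.56 CPM, and Zfp248 at 2.48 ± 0.492 and 3.15 ± 0.516 CPM. Rasgef1a and Zfp9 had at most 0.281 CPM in a library, and Fxyd4 0 reads. The 3 nearest protein-coding genes on each side of Trim27, which are olfactory receptor genes and the glutathione peroxidase genes Gpx5 and Gpx6, were all at 0 reads in the 10 libraries. Gm47806, an antisense gene that overlaps Trim27, also had 0 reads. Whether the estimates used strand is not given in the sources used here.

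**Figure D5:**
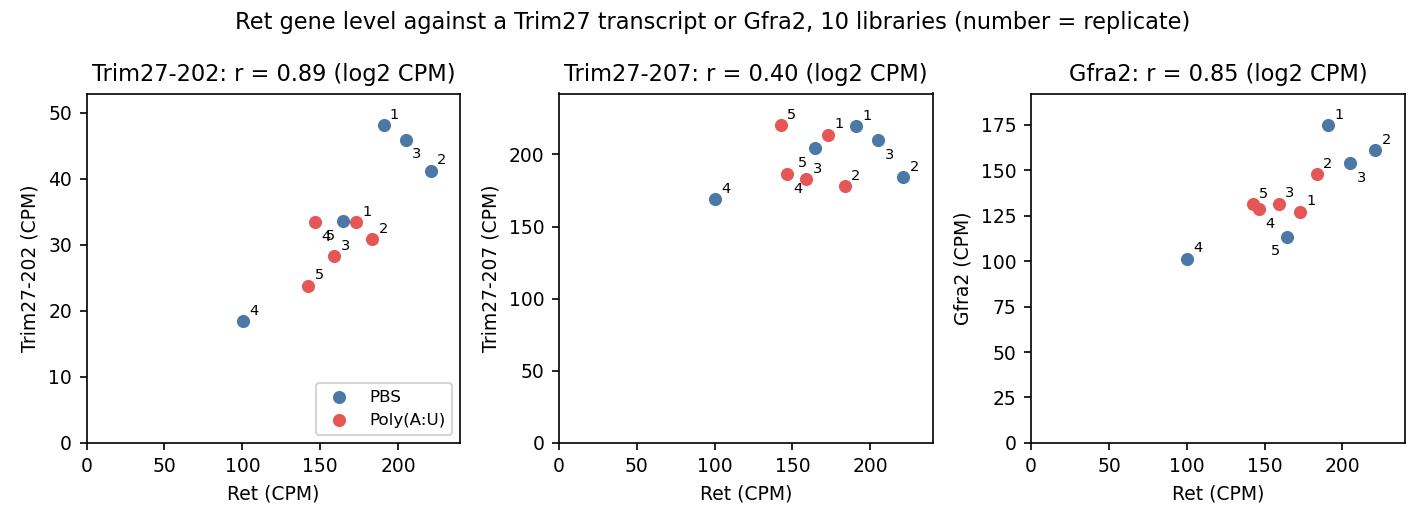
Ret against Trim27-202, Trim27-207 and Gfra2, each in CPM on linear axes from 0, with 1 point for each of the 10 libraries, coloured by treatment and numbered by replicate. Trim27-202 and Gfra2 rise with Ret (r = 0.89 and 0.85 on log2 CPM) and Trim27-207 less so (0.40), with PBS 4 at the low end of each plot.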

How the data were processed

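RNA-seq of 5 PBS and 5 Poly(A:U) libraries was analysed. The authors deposited estimated counts and TPM for 142333 transcripts per library, per the file headers, and a table of edgeR-normalized signal per gene. Build mm10, DRAGEN and edgeR 3.38.4 are named in the submitters' processing notes. Effective lengths in the files vary between libraries. Transcripts were assigned to genes with GENCODE M21, which left out 538 of them (at most 0.0695% of reads). Estimated counts were summed per gene and rounded. CPM is reads over the library total, and TPM was summed over transcripts.

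Groups were compared with edgeR 4.0.16 in R 4.3.3 (TMM, default count filter, robust quasi-likelihood, no covariate) over all genes and over all transcripts, two-sided, with Benjamini-Hochberg adjusted p and a threshold of 0.05. Uncertainty of sharing reads between transcripts is not in the files and not in these errors. Shares and ratios were compared by exact permutation tests, correlations by 100000 permutations, or exactly below 10 libraries. The scripts were tested on simulated data. Alternatives used DESeq2 1.42.0, limma 3.58.1 and the authors' deposited signal (log2 of the value plus 0.5).

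The design text gives 5 pups per group, taken as 1 pup per library. The members and lists were chosen with earlier results of these data known. Named were all transcripts of both genes, all ligands and co-receptors, kinases above 5 TPM, per list the 2 genes with the smallest unadjusted p where none was called, the 5 most similar genes for each member and the 3 nearest protein-coding genes on each side. Marker lists of B cell precursors, T cells, macrophages, neutrophils and erythroid cells are given as sums, without 1 marker that is not reported here. The 3 plasma cell markers summed to 84.9 to 122 CPM. Protein sequences were not used here.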

Additional observations from a re-analysis of the deposited data

Results flagged for a closer look

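Of 40 groups of 5 values examined for Ret, Trim27, their transcripts, Gfra1, Gfra2 and the ratio of Ret to Trim27, 4 had a library whose gap to its nearest neighbour was above 0.71 of the group's range, where chance gives about 1 in 20. Gfra2 was at 148 CPM in Poly(A:U) 2, against 127 to 132 CPM in the other 4 Poly(A:U) libraries. Trim27-204 took 0.157% of Trim27 reads in PBS 2, against 0% to 0.0431% in the other PBS libraries. Trim27-203 was at 0.0600 CPM (0.0213% of Trim27 reads) in Poly(A:U) 1 and at 0 in the other 4 Poly(A:U) libraries. These values rest on 7.34 estimated reads of Trim27-204 and 1.08 of Trim27-203. The low Ret value of PBS 4 did not pass this criterion.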

How the results depend on the processing

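Of 368 recomputed values, 328 kept their direction and their side of the threshold, 27 changed sign, 6 no longer passed, 2 newly passed and 5 values without a test of their own (counts of calls and the spread of Ret) moved. Here log2 fold changes were judged by adjusted p, and shares, ratios and correlations by p before adjustment. Without PBS 1 to PBS 3 the log2 fold changes were 0.26 for Ret, 0.062 for Trim27, 0.25 for Ret-202, 0.17 for Trim27-202 and 0.023 for Trim27-207. With the shared parts of the library names as a term, which leaves 2 pairs of libraries for the treatment, they were 0.24, 0.16, 0.22, 0.10 and 0.15. Without 1 library each, Trim27-205 ranged from -0.0076 to 0.095 and the log2 ratio of Ret to Trim27 from -0.18 to 0.042, and without PBS 1 to PBS 3 that ratio was 0.22. The genes called were 13 with DESeq2's Wald test, 932 with limma voom with quality weights and 0 to 18 without 1 library each (18 without PBS 5), and DESeq2 called 23 transcripts. The share of Trim27-207 differed by -1.04 percentage points over protein-coding transcripts alone and by -1.20 without PBS 1 to PBS 3, where Trim27-202 differed by 1.15 and Trim27-205 by -0.11. The share of Trim27-202 fell by 3.53 percentage points without PBS 4 (p = 0.0397, exact permutation test). The cause of these changes was not tested.

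The correlation of Ret and Trim27 passed with all 10 libraries only by Pearson p before adjustment, which is used here (adjusted p = 0.0860, permutation test with Benjamini-Hochberg). It did not pass without PBS 2 and PBS 4 (r = 0.54), without PBS 1 to PBS 3 (0.61) and without PBS 1, PBS 3, PBS 4 or Poly(A:U) 4 (0.39 to 0.65). Without each of the other single libraries it passed, up to r = 0.75 without PBS 2. Ret with Trim27-205 gave 0.089 without PBS 1 to PBS 3 and 0.032 centred on treatment means, and -0.22 to 0.11 without 1 library each. Ret with Trim27-201 gave 0.12 without PBS 1 to PBS 3 and -0.33 to 0.10 without 1 library each. By Pearson p before adjustment, Ret with Trim27-202 and with Gfra2 passed in every alternative run. By the rank correlation they did not in some, as given beside those results.

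Each pup received either PBS or Poly(A:U), so the same replicate number does not mark a shared animal. Same-numbered libraries had correlations of deviations of 0.02, 0.14, 0.14, -0.13 and -0.18, and 1 of 5 PBS libraries correlated best with its own number. With so few pairs, these values cannot show whether same-numbered pups were related in another way. With the number as a replicate block, the log2 fold change was -0.12 for Ret (edgeR adjusted p = 0.859) and -0.05 for Trim27 (0.898), and no call changed. Isoform estimates with fewer than 30 words of their own, and Trim27-201 at 25.3 to 115 reads, limit what the transcript shares can show.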
